A study of Mus musculus with 12 samples.

Results

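The genes of glutamine, urea and nitrogen handling, *Glul*, *Slc1a5*, *Asns*, *Got1*, *Cps1*, *Otc*, *Ass1*, *Arg2* and *Slc14a1*, were followed in sorted intestinal stem cells (ISCs). They are 9 of the 47729 genes of the count table and were taken by symbol from a list chosen on measured values of these libraries as well as on the genes' roles, so that the differences of these genes between stress and Ctrl, between CORT and vehicle and between these responses are a description. Their adjusted p-values, from a fit across all genes, say where each gene stood in that fit and are no independent test. RNA-seq was done on ISCs with high EGFP from the small intestines of mice that carried Lgr5-EGFP-IRES-CreERT2 and were 8 to 10 weeks old, in 12 libraries of 4 groups with 3 libraries each. This allele is a knock-in at *Lgr5* that is expressed in some crypts and not in others, and all 4 groups carried it, so every group is a sample of ISCs with an altered *Lgr5* locus. The Ctrl mice were not restrained, and by the study's protocol for restraint went without food and water for the same hours. The stress mice were held once, for 3 h on 1 day, in a ventilated tube, although their libraries carry the study's abbreviation for chronic restraint in their labels. By their labels, the libraries named stress 1+2 and stress 4+5+6 appear to pool several mice. The vehicle mice received 20% sulfobutylether-β-cyclodextrin by intraperitoneal injection. The CORT mice were injected once, for an exposure of 1 day, with corticosterone, the main glucocorticoid of the mouse, at 5 mg/kg in that vehicle.

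Nitrogen enters and leaves cells as amino acids, ammonia and urea. Glutamine synthetase (*Glul*) fixes ammonia on glutamate to make glutamine, and the transporter encoded by *Slc1a5* carries glutamine into the cell. In the urea cycle, *Cps1* and *Otc* turn ammonia and ornithine into citrulline in the mitochondria, *Ass1* and *Asl* turn citrulline into arginine in the cytosol, and arginase splits arginine into ornithine and urea. The small intestine is known for burning glutamine and for releasing citrulline into the blood, and *Glul* is a classic glucocorticoid-induced gene in muscle and other tissues.

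Total counts were 15934907 to 17135770 in Ctrl and stress, 16465961 to 31280267 in vehicle and 29426183 to 69533214 in CORT. The CORT group was thus the deepest by its median (59689732, against 16889139 in vehicle), and with counts thinned to the shallowest library the same 3 of the 9 genes were called in CORT. The lowest count of any of the 9 genes in any library was 168. The glucocorticoid targets *Fkbp5* and *Tsc22d3* were higher in stress by 1.72 ± 0.13 and 1.54 ± 0.12 (log2, ± SE) and in CORT by 2.42 ± 0.13 and 2.27 ± 0.14. All 6 ISC markers (*Axin2*, *Slc12a2*, *Smoc2*, *Ascl2*, *Olfm4* and *Lgr5*) were detected in each library, with a summed level of 10678 to 13938 CPM (counts scaled by library total and TMM factors over the 12 libraries). *Olfm4* had the most counts of the 6 in each library. The median over the 6 was 551 to 607 CPM in Ctrl and 494 to 526 in stress, 526 to 584 in vehicle and 434 to 518 in CORT. The 6 blood markers summed to at most 6.61 CPM, with *Ptprc* and *Lyz2* at 0 in all but 1 library each, and the 6 stromal and endothelial markers to at most 4.10 CPM, with *Col3a1*, *Acta2* and *Kdr* at 0 in every library. Enterocyte markers changed most of the marker lists in stress, where all 6 had a log2 fold change above 0 (median 2.85), and are given beside the genes they moved with. In CORT their sum was higher than in vehicle, but 3 of the 6 markers lay above 0 and 3 below (median -0.03). In stress, *Ascl2* (ISC) was also called lower, and *Mmp7* (Paneth) and *Clca1* (goblet) were called higher, at 0.427, 1.82 and 3.01 times the Ctrl level. All 6 Paneth markers (median 0.57) and 5 of 6 goblet markers (median 0.51) had a log2 fold change above 0 in stress. In bulk RNA, fewer cells of a type and less RNA per cell cannot be told apart.

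Promoter sequence is shown for *Glul*, the gene called higher in both treatments, and a short stretch for *Asns*, a gene that did not pass the test and whose promoter holds a well-known amino acid response element. Of the 9 genes, 5 had a promoter window of 300 bases (250 before to 50 after the start) in RefSeq for GRCm38.p6: *Glul*, *Asns*, *Got1*, *Ass1* and *Otc*. *Glul* lies on chromosome 1 at 153899944 to 153909723 on the plus strand (mm10), and the 250 bases before its RefSeq start, chr1:153899679-153899928, read as follows, with the match to the core of the glucocorticoid receptor's palindrome (ACANNNTGT) in capitals.
Glul: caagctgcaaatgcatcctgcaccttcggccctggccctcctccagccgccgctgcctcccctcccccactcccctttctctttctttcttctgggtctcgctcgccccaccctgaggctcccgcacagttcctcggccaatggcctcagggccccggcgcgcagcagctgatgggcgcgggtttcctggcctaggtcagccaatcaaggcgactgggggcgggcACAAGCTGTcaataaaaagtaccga
The match began 25 bases before the start, and 6.85% of the 32851 promoter windows hold these letters on either strand. *Asns* lies on chromosome 6 at 7675169 to 7693254 on the minus strand, and 30 bases of its window, chr6:7693214-7693243, hold a match to the core of the C/EBP-ATF response element (TGATGNAA), in capitals, which 3.97% of windows hold. This stretch was chosen after the values were seen.
Asns: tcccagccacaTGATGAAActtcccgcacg
The AGAACA half-site of the glucocorticoid receptor (in 19.0% of windows) was matched 141 bases before the start of *Asns*, the C/EBP-ATF core 102 bases before that of *Got1*, the E-box CACGTG (7.15% of windows) 36 bases before that of *Ass1* and the D-box core TTATGNAA (3.38% of windows) 143 bases before that of *Otc*. All were searched on both strands, the palindrome core can overlap the half-site, and a match of letters is not a bound site.

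Levels between genes were compared per length, as FPKM. *Cps1* was the highest of the 9 genes in Ctrl, at 557 ± 41.8 FPKM (SD, n = 3), and ranked 135 among the 19070 genes with an FPKM above 0 in Ctrl. It was followed by *Slc1a5* (78.2 ± 14.4), *Otc* (69.6 ± 0.89), *Glul* (57.4 ± 2.69), *Asns* (44.0 ± 2.66), *Slc14a1* (31.3 ± 2.31), *Arg2* (19.3 ± 2.63), *Got1* (16.4 ± 1.35) and *Ass1* (6.19 ± 0.12), the last at rank 8024. The Ctrl libraries of neighbours in this order overlapped for *Slc1a5* and *Otc* and for *Arg2* and *Got1* and for no other neighbours. The mitochondrial, citrulline-making part of the urea cycle thus stood well above its first cytosolic enzyme in FPKM, and *Asl*, the next cytosolic enzyme, lay at 18.7 ± 1.24 FPKM. The order of *Glul* and *Slc14a1* moved with treatment. *Glul* reached 102 ± 4.27 FPKM in stress and 211 ± 49.0 in CORT, above *Slc1a5* in each of these 6 libraries, whereas *Slc14a1* lay at 9.82 ± 1.78 in stress and at 5.70 ± 3.04 in CORT, where its libraries overlapped those of *Ass1*.

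**Figure D1:**
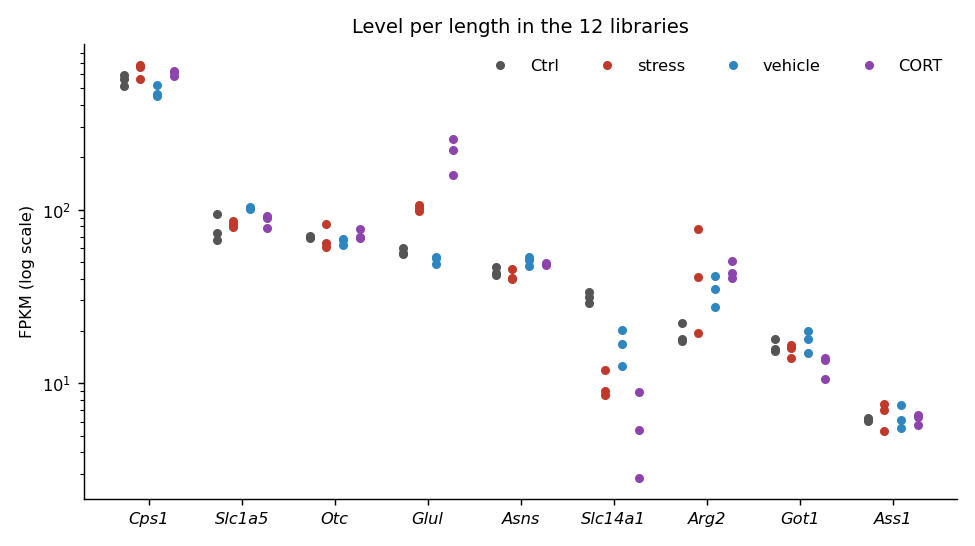
Level per length (FPKM, log scale) of the 9 genes in each of the 12 libraries, coloured by group and ordered by the Ctrl mean. *Cps1* lies above every other gene in all libraries, *Glul* is highest in CORT (158 to 255 FPKM) and *Slc14a1* lowest there (2.84 to 8.90 FPKM).

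Stress was compared with Ctrl for the effect of 1 restraint on ISCs, and CORT with vehicle for that of the hormone given alone. *Glul* rose in both treatments. Its level was 187, 176 and 167 CPM in Ctrl 1, 2 and 3 and 303, 325 and 315 CPM in stress 1+2, 3 and 4+5+6. All 3 stress libraries lay above all Ctrl libraries, within a narrow range. In vehicle 3, 5 and 6 it was 148, 161 and 164 CPM, and in CORT 2, 4 and 5 it was 790, 731 and 513 CPM. CORT 5 lay below the other CORT libraries and still far above every vehicle library. The log2 fold change was 0.83 ± 0.08 (SE) in stress (adjusted p = 9.1e-04, edgeR quasi-likelihood test with Benjamini-Hochberg adjustment over 13722 genes), a 1.78-fold higher level, and 2.10 ± 0.15 in CORT (adjusted p = 1.3e-04, over 14656 genes), a 4.29-fold higher level. The difference between these responses, the interaction of stress minus Ctrl with CORT minus vehicle, was -1.27 ± 0.18 on the log2 scale (95% interval -1.65 to -0.89, adjusted p = 0.0075), so that the increase was larger after CORT. *Glul* was the only one of the 9 genes called in the interaction, where 0.388% of all genes were called. The doses of hormone in blood were not part of these data, so the treatments are compared as given. *Glul* shares 116 exonic bases with *Teddm2* on the opposite strand, but *Teddm2* had 344 counts over the 12 libraries against 145834 for *Glul*.

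*Slc1a5*, *Asns* and *Got1* were not called in either treatment. *Slc1a5*, the glutamine importer (chromosome 7, 16781340 to 16798274, plus strand), had 205 to 272 CPM in Ctrl and 243 to 250 in stress, 300.3 to 304 with vehicle and 247 to 288 with CORT. Its log2 fold change was 0.08 (95% interval -0.16 to 0.32) in stress and -0.17 (-0.35 to 0.00) in CORT, and the CORT libraries all lay below the vehicle libraries. *Asns*, which makes asparagine from aspartate with the amide of glutamine, had 90.4 to 105 CPM in Ctrl and 87.6 to 102 in stress, 103 to 118 with vehicle and 109 to 115 with CORT. Its log2 fold changes were -0.05 (-0.26 to 0.16) and 0.02 (-0.16 to 0.19). *Got1*, the cytosolic aspartate aminotransferase (chromosome 19, 43499752 to 43524605, minus strand), had 34.8 to 41.1 CPM in Ctrl and 31.7 to 37.8 in stress. It had 33.1 to 42.9 CPM in vehicle and 25.5 to 32.4 in CORT, where all 3 libraries lay below vehicle and the log2 fold change was -0.38 (-0.69 to -0.08, adjusted p = 0.126).

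**Figure D2:**
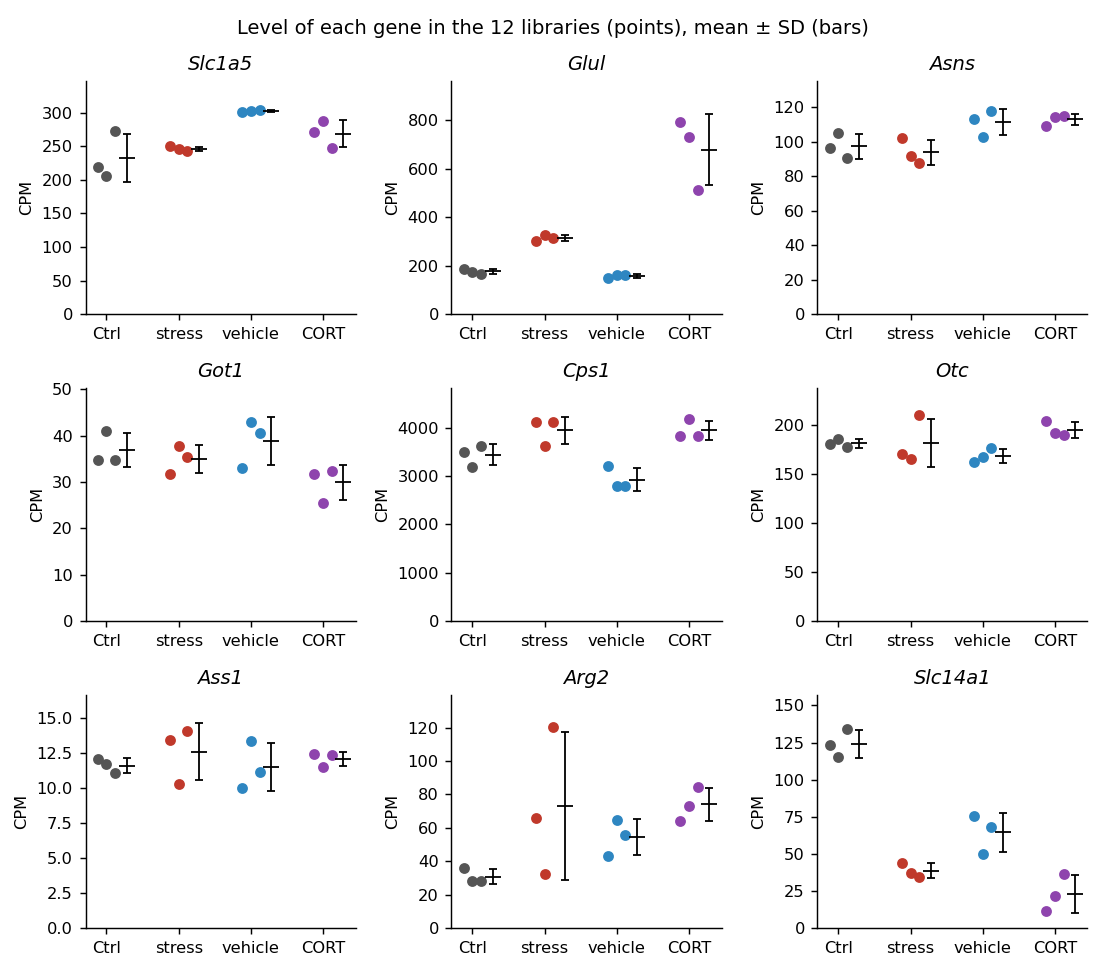
CPM of each of the 9 genes in each library (points, in the order of the library numbers) with the group mean ± SD (n = 3, bars), on axes that start at 0. *Glul* is highest in CORT (513 to 790 CPM), *Slc14a1* is highest in Ctrl (115 to 134 CPM), and *Arg2* spreads from 32.2 to 120 CPM within stress.

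Of the urea cycle genes, *Cps1* was higher in CORT, and no other was called in either treatment. *Cps1*, the carbamoyl phosphate synthetase that takes up mitochondrial ammonia (chromosome 1, 67123026 to 67231259, plus strand), had 3505, 3198 and 3613 CPM in Ctrl 1, 2 and 3 and 4116, 3627 and 4112 CPM in stress 1+2, 3 and 4+5+6. Stress 3 lay just above Ctrl 3, and the log2 fold change was 0.20 ± 0.09 (adjusted p = 0.309, and 0.0257 without stress 3, which also had the lowest sums of enterocyte, goblet and Paneth markers in stress). Without stress 3, 849 of 14196 genes were called over all genes, against 260 of 13722 with it. *Cps1* had 3201, 2792 and 2796 CPM in vehicle 3, 5 and 6 and 3836, 4177 and 3825 CPM in CORT 2, 4 and 5, with no overlap and a log2 fold change of 0.43 ± 0.09 (adjusted p = 0.0236). The CORT mean of 3946 ± 200 CPM was close to the stress mean of 3951 ± 281 CPM, and the vehicle mean (2930 ± 235 CPM) lay below the Ctrl mean (3439 ± 216 CPM). The summed level of 6 enterocyte markers was likewise higher in CORT (443 to 521 CPM) than in vehicle (303 to 324 CPM), with *Fabp2* and *Slc5a1* called higher. The markers did not rise as a set, since 3 of the 6 had a log2 fold change above 0 and 3 below, with a median of -0.03. Their part in the level of *Cps1* was not tested. The call in CORT was lost when vehicle 5, vehicle 6, CORT 4 or CORT 5 was left out, with adjusted p of 0.072 to 0.0996, and on both FPKM scales, with adjusted p of up to 0.102.

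*Otc*, which adds carbamoyl phosphate to ornithine (chromosome X, 10252305 to 10321024, plus strand), had 177 to 185 CPM in Ctrl and 165 to 209 in stress, 162 to 176 with vehicle and 189 to 204 with CORT. The CORT libraries all lay above vehicle, with a log2 fold change of 0.21 (95% interval 0.04 to 0.37, adjusted p = 0.122), and in stress it was 0.01 (-0.22 to 0.23). *Ass1*, which joins citrulline and aspartate (chromosome 2, 31470207 to 31520672, plus strand), ranged from 9.99 to 14.1 CPM over all 12 libraries, and its intervals of -0.30 to 0.54 in stress and -0.29 to 0.43 in CORT were among the wider ones. Changes of up to about that size in either direction could not be told from none for *Ass1* at this spread.

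*Arg2*, the mitochondrial arginase (chromosome 12, 79130777 to 79156301, plus strand), had 35.7, 28.3 and 28.2 CPM in Ctrl 1, 2 and 3 and 66.1, 32.2 and 120 CPM in stress 1+2, 3 and 4+5+6. Stress 3 lay among the Ctrl libraries and stress 4+5+6 was the highest of all 12. The log2 fold change of 1.25 ± 0.36 had an adjusted p of 0.131, and without stress 3 the adjusted p was 0.0018. Leaving out stress 3 raised the calls over all genes as well, to 849 of 14196 from 260 of 13722. The summed level of 6 enterocyte markers (*Alpi*, *Apoa1*, *Apoa4*, *Sis*, *Fabp2* and *Slc5a1*) stood in the same order in stress, at 1141 CPM in stress 1+2, 585 in stress 3 and 1898 in stress 4+5+6, against 371 to 388 in Ctrl, and 5 of the 6 markers were called higher in stress. The sum of 6 goblet markers stood in this order too, at 885 CPM in stress 1+2, 501 in stress 3 and 1352 in stress 4+5+6. It was 521 to 666 CPM in Ctrl. The part of either set of markers in the level of *Arg2* was not tested. In vehicle 3, 5 and 6 *Arg2* had 43.1, 64.4 and 55.5 CPM at an enterocyte sum of 303 to 324 CPM, below that of Ctrl, and in CORT 2, 4 and 5 it had 64.3, 73.2 and 84.5 CPM at a sum of 443 to 521 CPM. CORT 2 lay just below vehicle 5, and the log2 fold change was 0.44 ± 0.15 (adjusted p = 0.110, and 0.0278 with DESeq2). *Arg2* shares 285 of the 1428 bases of its transcript with *Vti1b* on the opposite strand, and since counting is not stated to use strand, reads there cannot be assigned to one of them. *Vti1b* itself had 66.0 to 69.2 CPM in stress and 68.3 to 74.2 in Ctrl, and 73.8 to 81.8 in CORT and 67.4 to 77.7 in vehicle, without TMM factors.

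**Figure D3:**
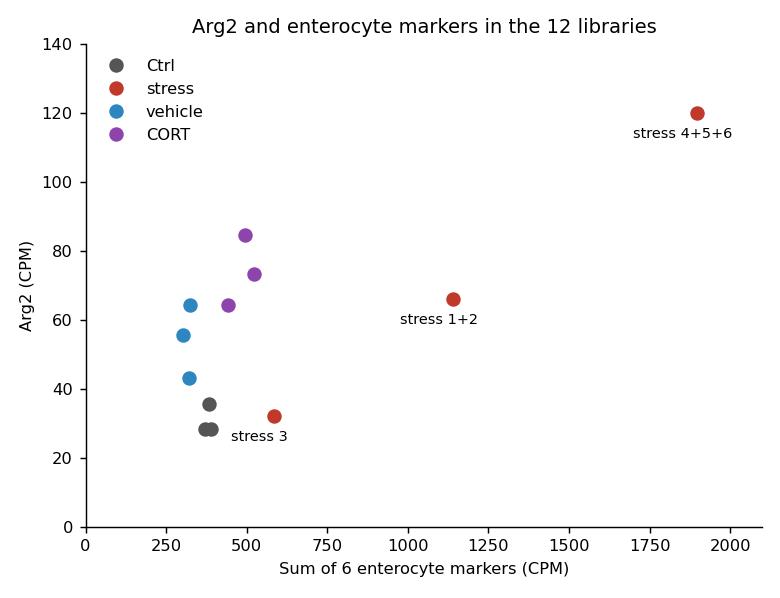
*Arg2* (CPM) against the summed level of 6 enterocyte markers (CPM) in each of the 12 libraries, coloured by group. The 3 stress libraries lie from 585 to 1898 CPM in the marker sum and from 32.2 to 120 CPM in *Arg2*, while vehicle and CORT reach 43.1 to 84.5 CPM of *Arg2* at marker sums of 303 to 521 CPM.

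*Slc14a1*, the urea transporter UT-B (chromosome 18, minus strand), fell in both treatments. It had 123, 115 and 134 CPM in Ctrl 1, 2 and 3 and 44.0, 37.1 and 34.2 CPM in stress 1+2, 3 and 4+5+6. The groups were far apart, with a log2 fold change of -1.69 ± 0.11 (adjusted p = 1.2e-04), 0.309 of the Ctrl level. It had 75.7, 49.6 and 67.9 CPM in vehicle 3, 5 and 6 and 11.3, 21.3 and 36.4 CPM in CORT 2, 4 and 5. The CORT libraries differed from each other by more than 3-fold, and all lay below vehicle, with a log2 fold change of -1.50 ± 0.35 (adjusted p = 0.0309), 0.353 of the vehicle level. The call in CORT was lost without vehicle 3, vehicle 5, vehicle 6 or CORT 4, with adjusted p of 0.0522 to 0.119. The difference between the responses was -0.19 with a 95% interval of -1.08 to 0.70, an interval that holds a clearly larger response in stress as well as a smaller one. The part of the enterocyte markers, whose sum was higher in every stress library than in Ctrl, in the levels of *Slc14a1* and *Glul* was not tested. CORT 5 had the lowest *Glul* and the highest *Slc14a1* of the CORT group.

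By count, 2 of the 9 genes were called in stress vs. Ctrl, 1 higher and 1 lower, where 1.30% of all genes tested were called higher and 0.590% lower. With a 2-fold threshold added, *Slc14a1* remained, where 0.751% of genes passed. In 3 of the 9 genes (*Glul*, *Slc14a1* and *Cps1*) the 3 stress libraries all lay beyond the 3 Ctrl libraries, which was so for 20.4% of all genes. In CORT vs. vehicle 3 of the 9 genes were called, 2 higher and 1 lower, beside 3.64% of all genes higher and 4.50% lower. *Glul* and *Slc14a1* also passed the 2-fold threshold, beside 1.87% of genes, and 6 of the 9 genes did not overlap between CORT and vehicle, beside 28.7% of genes. Since the genes were chosen with values of these comparisons known, nothing is read from these counts. The median log2 fold change of the 9 genes was 0.08 in stress and 0.07 in CORT, against 0.00 and 0.01 over all genes tested.

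**Figure D4:**
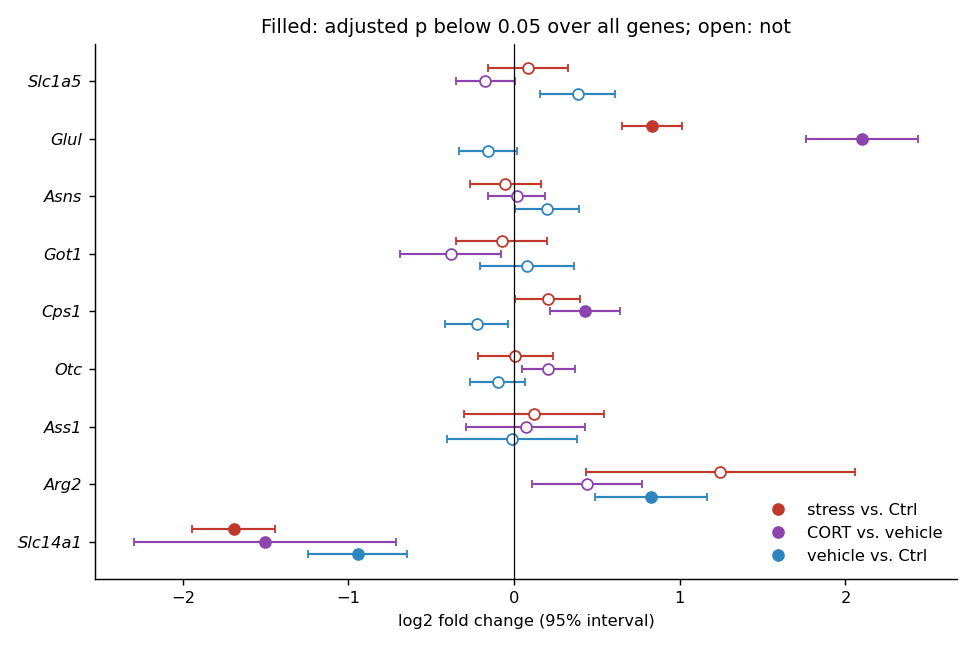
Log2 fold change with its 95% interval for each of the 9 genes in stress vs. Ctrl, CORT vs. vehicle and vehicle vs. Ctrl. Filled points passed an adjusted p of 0.05 over all genes tested and open points did not, and *Glul* (0.83 and 2.10) and *Slc14a1* (-1.69 and -1.50) are filled in both treatments.

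Vehicle was compared with Ctrl to see what the injected control alone carried. *Slc14a1* was lower in vehicle by 0.94 ± 0.14 on the log2 scale, at 0.520 of the Ctrl level (adjusted p = 0.0102), and *Arg2* was higher by 0.82 ± 0.15, a 1.77-fold higher level (adjusted p = 0.0365). The vehicle libraries lay beyond the Ctrl libraries in 5 of the 9 genes (*Slc14a1*, *Glul* and *Otc* below, *Slc1a5* and *Arg2* above), beside 16.3% of all genes, and 0.447% of all genes were called higher and 0.352% lower. *Glul* itself differed by -0.16 (95% interval -0.34 to 0.02, adjusted p = 0.529). These libraries are the controls of the other comparisons, which were known when the genes were chosen, so this comparison is not independent of that choice either. *Fkbp5* was also higher in vehicle than in Ctrl, by 1.42 ± 0.12 (adjusted p = 4.0e-04), while *Tsc22d3* differed by -0.13 (adjusted p = 0.798). The injection and anything else in which these groups were handled differently cannot be told apart here. Both calls were also made with counts thinned to the shallowest library. The call of *Slc14a1* was lost without Ctrl 1 or Ctrl 3, and that of *Arg2* without any 1 library other than vehicle 3. Neither call held in the fit on all 12 libraries, where the adjusted p was 0.206 for *Slc14a1* and 0.366 for *Arg2*.

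Of 16 direct partners of these enzymes, 3 were called in a treatment. *Slc7a5* was called in stress, where 1.89% of all genes were called. *Slc7a5*, *Slc7a1* and *Gpt2* were called in CORT, where 8.13% of all genes were. *Slc7a5*, which encodes a large neutral amino acid exchanger known to release glutamine for leucine, rose in stress by 0.48 ± 0.09 on the log2 scale (adjusted p = 0.0277). It had 56.3, 62.0 and 64.3 CPM in Ctrl and 88.3, 84.5 and 81.5 CPM in stress, with no overlap. It also rose in CORT, by 0.42 ± 0.11 (adjusted p = 0.0491), from 82.9, 84.8 and 104 CPM in vehicle to 131, 128 and 107 CPM. *Slc7a5* was already higher in vehicle than in Ctrl, by 0.58 ± 0.10 (adjusted p = 0.0304). *Slc7a1*, the main importer of arginine, fell in CORT by 0.55 ± 0.08 (adjusted p = 0.0052), from 184, 170 and 206 CPM to 130, 128 and 126 CPM, and differed by -0.26 in stress (adjusted p = 0.164). *Gpt2*, the mitochondrial alanine aminotransferase, rose in CORT by 1.19 ± 0.25 (adjusted p = 0.0212) with 2.85 to 4.44 CPM in vehicle and 6.90 to 10.2 CPM in CORT. The call of *Slc7a5* was lost in stress without any 1 library other than stress 3 and in CORT without vehicle 3, vehicle 5, CORT 2 or CORT 4, and that of *Gpt2* without vehicle 3, vehicle 5 or CORT 4. With counts thinned to the shallowest library neither was called in CORT (adjusted p = 0.0714 for *Slc7a5* and 0.0689 for *Gpt2*), and *Slc7a5* was called in neither treatment on either FPKM scale.

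The remaining 13 partners were not called in either treatment. *Gls2*, which splits glutamine, differed by -0.33 in stress and 0.25 in CORT on the log2 scale. *Glud1*, the glutamate dehydrogenase, differed by 0.20 and 0.08, and *Slc38a2*, a sodium-coupled glutamine importer, by 0.02 and -0.23. *Nags*, which makes the activator of *Cps1*, differed by -0.04 and 0.20, and *Slc25a15*, the mitochondrial ornithine carrier, by -0.36 (adjusted p = 0.0528) and -0.27 (adjusted p = 0.0530). The 3 treated libraries of *Slc25a15* lay below all controls in each case, at 165 to 181 CPM against 215 to 224 in Ctrl, and at 164 to 177 CPM against 198 to 213 in vehicle. *Asl* differed by -0.17 and -0.04, *Oat*, which makes ornithine into a glutamate precursor, by 0.03 and 0.33, *Aldh18a1*, which makes the same intermediate from glutamate, by 0.10 and 0.05, and *Got2* by -0.01 and 0.02. *Odc1*, the first enzyme of polyamine synthesis, differed by -0.32 and -0.24, with adjusted p of 0.139 and 0.110, and was called in both treatments with DESeq2, as was *Oat* in CORT. *Arg1*, the cytosolic arginase of liver, was at 0.23 to 3.35 CPM in the 12 libraries. *Atf4*, the transcription factor of amino acid shortage, differed by -0.13 and -0.21.

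Over 131 further genes in 5 lists written from textbook roles, 4 of 107 tested (3.74%) were called in stress, beside 1.89% of all genes, and 14 of 114 tested (12.3%) in CORT, beside 8.13% of all genes. In stress, 2 were higher and 2 lower, and their median log2 fold change was -0.06. In the glutamine and glutamate list, 2 of 26 tested genes rose, *Slc7a5* and *Slc7a7*, and none fell. *Slc7a7*, which exports cationic amino acids across the basolateral membrane of enterocytes, had 37.7, 31.2 and 34.9 CPM in Ctrl and 64.3, 51.9 and 68.5 CPM in stress, higher by 0.83 ± 0.13 (adjusted p = 0.0132), and its stress libraries stood in the same order as the enterocyte and goblet marker sums, whose part was not tested. In the list of urea cycle, arginine and polyamines, 1 of 27 was called. This was *Srm*, the spermidine synthase, which fell by 0.73 ± 0.09 (adjusted p = 0.0038), from 63.5, 69.6 and 66.5 CPM to 38.7, 41.2 and 40.2 CPM. In the list of amino acid response and tRNA charging, 1 of 26 was called. This was *Sesn2*, a leucine sensor upstream of mTORC1, which fell by 0.78 ± 0.14 (adjusted p = 0.0255), with 26.2 to 33.1 CPM in Ctrl and 15.8 to 17.6 CPM in stress. The call of *Srm* held without any 1 library, whereas those of *Slc7a7* and *Sesn2* were lost without any 1 Ctrl library or stress 1+2, and that of *Sesn2* also without stress 4+5+6, so that 1 to 16 of these genes were called with a library left out, 16 without stress 3. Without stress 3, calls over all genes rose as well, to 849 of 14196. None of 4 water and ammonia channels (0 of 4) and none of 24 genes of aspartate, asparagine, serine and transaminases (0 of 24) was called in stress.

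In CORT, 6 of the 14 called genes were higher and 8 lower, with a median of -0.07 over the 114 genes tested. *Ctps*, the CTP synthase that takes its amide from glutamine, had 78.9, 83.7 and 91.2 CPM in vehicle and 214, 203 and 173 CPM in CORT, 2.32-fold higher (log2 1.21 ± 0.10, adjusted p = 2.5e-04). Like *Glul*, *Ctps* was called in the interaction, at -0.90 ± 0.14 (adjusted p = 0.0153), since its log2 fold change in stress was 0.32 ± 0.10 (adjusted p = 0.159). Of the 26 tested genes of glutamine and glutamate, 7 were called. *Ctps*, *Slc7a8*, *Gclc* and *Slc7a5* were higher, and *Slc7a6*, *Slc38a1* and *Slc25a22* were lower. *Slc7a8*, a neutral amino acid exchanger, differed by 0.83 ± 0.11 (adjusted p = 0.0025), and *Gclc*, which joins glutamate and cysteine in glutathione synthesis, by 0.76 ± 0.12 (adjusted p = 0.0059). *Slc7a6*, a cationic and neutral amino acid exchanger, fell by 0.50 ± 0.10 (adjusted p = 0.0142).

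In the list of urea cycle, arginine and polyamines, 2 of 29 tested genes were called in CORT, *Slc7a1* and *Srm*, both lower. *Srm* fell by 0.94 ± 0.12 (adjusted p = 0.0022), from 80.2, 72.5 and 96.9 CPM in vehicle to 43.3, 38.9 and 48.3 CPM in CORT. Of 29 genes of amino acid response and tRNA charging, 3 were lower and none was higher. *Cebpb*, a transcription factor that can pair with ATF4, fell by 1.01 ± 0.13 (adjusted p = 0.0023), from 38.0 ± 5.76 CPM (SD, n = 3) to 19.0 ± 1.15 CPM, and *Yars*, the tyrosyl-tRNA synthetase, fell by 0.39 ± 0.07 (adjusted p = 0.0139). *Chac1*, which degrades glutathione and is a target of ATF4, was called with 8, 4 and 0 counts in CORT 2, 4 and 5 against 21, 12 and 37 counts in vehicle 3, 5 and 6, so few that no fold is given. *Aqp1*, a water channel and 1 of 4 channels tested, rose by 0.57 ± 0.11 (adjusted p = 0.0143), from 728, 919 and 952 CPM to 1240, 1322 and 1300 CPM. Of 26 genes of aspartate, asparagine, serine and transaminases, *Gpt2* was the 1 called. Beside these, 4 of 6 Paneth cell markers, 3 of 6 ISC markers (*Lgr5*, *Ascl2* and *Smoc2*) and the tuft cell marker *Pou2f3* were lower in CORT, while 2 of 6 enterocyte markers (*Fabp2* and *Slc5a1*) and the endothelial marker *Pecam1*, at 1.46 to 3.23 CPM in CORT, were higher, and the Paneth markers summed to 104 to 116 CPM against 186 to 211 CPM in vehicle. The Paneth sum was 136 to 173 CPM in Ctrl. In vehicle vs. Ctrl *Mmp7* was called higher, and the other 5 Paneth markers had a log2 fold change below 0. The part of all these markers in these results was not tested. The call of *Lgr5* was lost without any 1 library, with adjusted p of 0.0530 to 0.0723. Those of *Ctps*, *Srm*, *Cebpb*, *Slc7a8*, *Slc7a1* and *Gclc* held without any 1 library, while those of *Yars*, *Slc7a6* and *Aqp1* were lost without CORT 4 or CORT 5 and that of *Chac1* without any 1 library other than vehicle 5. The call of *Slc38a1* was lost without vehicle 5, vehicle 6, CORT 2 or CORT 4, and that of *Slc25a22* without any 1 library other than CORT 2. In all, 6 to 11 of these genes were called with a library left out, 6 without CORT 4. Without CORT 4, calls over all genes fell as well, to 503 of 14993 from 1192 of 14656. In vehicle vs. Ctrl, 3 of 108 tested genes of the lists (2.78%, beside 0.799% of all genes) were called, *Slc7a5*, *Prodh* and *Eif4ebp1*, all higher.

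**Figure D5:**
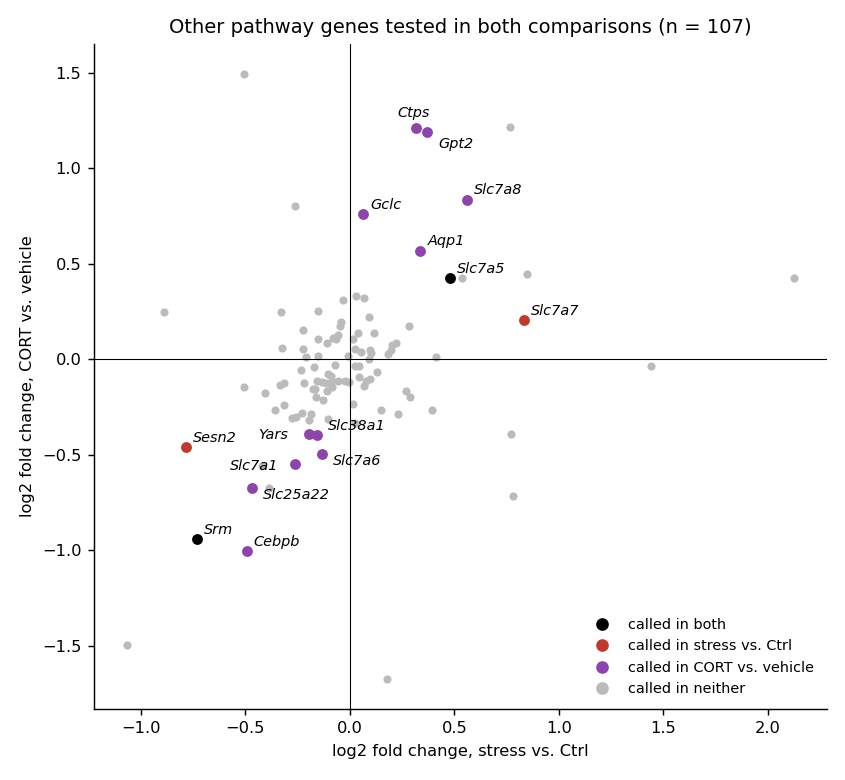
Log2 fold change in CORT vs. vehicle against that in stress vs. Ctrl for the 107 genes of the 5 lists tested in both, coloured by call. *Slc7a5* (0.48 and 0.42) and *Srm* (-0.73 and -0.94) were the 2 genes called in both, and *Ctps* lies at 0.32 in stress and 1.21 in CORT.

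For each of the 3 genes called in a treatment, the genes with the most similar pattern of log2(CPM + 1) over the 12 libraries, which share their groups and depths, were found among 14415 genes. Nearest to *Glul* were *Hpgd* (Pearson's r = 0.989), *Kcnk1* (0.977) and *Tmc7* (0.972). *Hpgd*, which inactivates prostaglandins, had a mean of 42.6 ± 2.52 CPM in Ctrl and 119 ± 12.7 in stress (SD, n = 3), and of 38.7 ± 2.01 in vehicle and 333 ± 43.7 in CORT. Nearest to *Slc14a1* were *Pdgfa* (0.971), *Fam20c* (0.951) and *Zfp703* (0.951). *Pdgfa*, a platelet-derived growth factor chain, had 109 ± 8.47 CPM in Ctrl and 62.5 ± 4.71 in stress, then 92.7 ± 9.34 with vehicle and 47.3 ± 14.2 with CORT. Nearest to *Cps1* were *Trpm7* (0.966), *Nipal1* (0.949) and *Slc30a4* (0.947).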

How the data were processed

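The authors aligned paired reads of 150 bases to mm10 and deposited 1 table with the estimated counts of each gene (not divided by library size) and, per library, FPKM, TPM and coverage. The methods name HISAT2 and featureCounts, and the submitters' processing notes name HISAT2 2.2.1 and StringTie 2.2.1. In genes with 1 transcript, coverage (a deposited signal per base) times length was 75.0 bases per count in each library, so a count is a length of covered bases, not a read, and a read pair can give up to 4 counts. Whether counting used strand is not given in the sources used here. TPM was not used. Of the genes, 47310 matched GENCODE M21 by identifier, which supplied positions and overlaps. 0 columns were left without a sample.

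Counts were rounded and fitted with edgeR 4.0.16 (TMM, filterByExpr, quasi-likelihood F-test, Benjamini-Hochberg over all genes tested) (R 4.3.3), using 6 libraries for a comparison and 12 for the interaction. A gene was called at an adjusted p of 0.05. SE is the log2 fold change over the root of F. Levels are CPM with TMM factors, and deposited FPKM for levels between genes. The fit was tested on simulated counts first. The genes, lists and tests were chosen with earlier results of these data known. Named were the 9 genes, 16 fixed partners, up to 10 called list genes per treatment by adjusted p, and the 3 most similar genes of each called one. Of these and of the markers, 1 partner and 1 marker are not reported here. *Slc38a1*, *Slc25a22*, *Prodh* and *Eif4ebp1*, and the genes overlapping *Glul* and *Arg2*, fall outside this rule and were named after their values were seen. Alternatives were DESeq2 1.42.0, its size factors, other filters, a fit on all 12 libraries, counts divided by 4, limma 3.58.1 on log2(FPKM + 1 or 0.1), each library left out, and, added after the data were seen, counts thinned to the shallowest library. The methods state that groups held biologically separate samples, but the labels do not tie each library to its mice, so p-values cover the spread between libraries. Replicate pairs differed beyond sampling noise (chi-square per gene 9.20 to 94.1), and none was merged.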

Additional observations from a re-analysis of the deposited data

Results flagged for a closer look

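The response of *Glul* differed between stress and CORT by -1.27 on the log2 scale (stress minus Ctrl, minus CORT minus vehicle) in the test of that difference. Its libraries were 303 to 325 CPM in stress and 513 to 790 CPM in CORT, from 167 to 187 CPM in Ctrl and 148 to 164 CPM in vehicle. *Glul* was chosen with both responses known. The response of *Ctps* differed in the same test by -0.90 on the log2 scale, with 89.9 to 112 CPM in stress against 79.3 to 86.4 CPM in Ctrl, and 173 to 214 CPM in CORT against 78.9 to 91.2 CPM in vehicle.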

How the results depend on the processing

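No paired analysis was made, since the labels do not say that equal numbers mark matched mice. Vehicle and CORT also share only the number 5, and Ctrl and stress share only the number 3 for a single library, since stress 1+2 is 1 library with the numbers of both Ctrl 1 and Ctrl 2. With counts thinned to the shallowest library 2, 3, 2 and 1 of the 9 genes were called in stress, CORT, vehicle vs. Ctrl and the interaction, as without thinning, and 12 of the other list genes in CORT in place of 14. The call of *Glul* held in every alternative in stress (log2 0.80 to 0.88), in CORT (1.98 to 2.27) and in the interaction, and that of *Slc14a1* in stress (-1.80 to -1.59).
Of the 9 genes, 4 were called in stress without stress 3 (*Arg2* and *Cps1* added) and 2 under every other alternative. Without stress 3, 849 of 14196 genes were called over all genes, against 260 of 13722 with it. In CORT, 1 to 3 of the 9 genes were called with a library left out, *Glul* alone without vehicle 5, vehicle 6 or CORT 4, and 2 to 4 under the other alternatives. In vehicle vs. Ctrl, the 2 calls became 3 in DESeq2, where *Slc1a5* was added (log2 0.38, adjusted p = 0.0158). They became 1 with no filter, 0 in the fit on all 12 libraries and 0 and 0 on log2(FPKM + 1) and log2(FPKM + 0.1), and 0 to 2 with a library left out. Over all genes, the 109 calls of this comparison became 329 in DESeq2, 78 with no filter and 83 on all 12 libraries. They became 35 and 35 on FPKM and 20 to 169 with a library left out. Of the other list genes, the 4 called in stress became 11 in DESeq2, 1 with no filter, 8 on all 12 libraries and 2 and 2 on FPKM, and 1 to 16 with a library left out (16 without stress 3, 1 without stress 1+2 or any one Ctrl library, 2 without stress 4+5+6). The 14 called in CORT became 21 in DESeq2 and 6 to 11 with a library left out (6 without CORT 4, 9 without CORT 5). Over all genes, the 260 calls in stress became 616 in DESeq2, 46 with no filter and 510 on all 12 libraries. They became 89 and 90 on FPKM and 56 to 849 with a library left out. The 1192 calls over all genes in CORT became 1870 in DESeq2 and 503 to 1003 with a library left out (503 without CORT 4). Leaving out a library leaves fewer libraries in the fit, and for the other settings the cause was not tested. *Slc25a15*, not called in the report, was called under 5 alternatives in stress and 7 in CORT. The remaining changes of sign were in values near 0, except in *Slc14a1*. Its difference between the responses went from -0.19 to 0.290 without CORT 5. On log2(FPKM + 1) and log2(FPKM + 0.1), the value was -0.022 and -0.023 for *Otc* in stress, and in CORT -0.028 and -0.031 for *Ass1*, -0.055 and -0.056 for *Asns*, -0.030 and -0.030 for *Aldh18a1* and -0.058 and -0.058 for *Got2*. In vehicle vs. Ctrl it was 0.033 and 0.037 for *Ass1*. With a library left out, the values in stress ran from -0.107 to 0.073 for *Otc*, -0.116 to 0.0076 for *Asns*, -0.135 to 0.011 for *Got1*, -0.132 to 0.026 for *Nags*, -0.0086 to 0.066 for *Oat*, -0.061 to 0.059 for *Got2*, -0.052 to 0.087 for *Slc38a2* and -0.207 to 0.044 for *Lgr5*. In CORT they ran from -0.019 to 0.187 for *Ass1*, -0.038 to 0.060 for *Asns*, -0.115 to 0.080 for *Asl* and -0.020 to 0.076 for *Got2*, in vehicle vs. Ctrl from -0.127 to 0.077 for *Ass1*, and in the interaction from -0.528 to 0.290 for *Slc14a1* and -0.073 to 0.171 for *Ass1*.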
